A study of Homo sapiens with 30 samples.

Results

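The NRF2 antioxidant target genes described here are 9 genes chosen by name. They were found in the deposited expression table by matching its Ensembl identifiers to gene symbols: HMOX1 (ENSG00000100292.18), NQO1 (ENSG00000181019.13), SLC7A11 (ENSG00000151012.13), GCLM (ENSG00000023909.10), GCLC (ENSG00000001084.13), TXNRD1 (ENSG00000198431.17), SRXN1 (ENSG00000271303.2), SQSTM1 (ENSG00000161011.20) and OSGIN1 (ENSG00000140961.14). All 9 were among the 61597 genes of the table, and 8 of them were among the 15137 genes tested, which had to reach 1 CPM (reads of a gene scaled to a fixed total per library) in 5 or more libraries. SRXN1 did not reach that level.

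The cells were LX2, a human cell line of hepatic stellate origin with the activated phenotype, and their polyadenylated RNA was read from the 3′ end. The 30 libraries form 6 groups of 5, with 1 library of each group in each of 5 experiments. Docosahexaenoic acid (DHA), which has 22 carbons and 6 double bonds (omega 3), or oleic acid (OLA), which has 18 carbons and 1 double bond (omega 9), was given at 50 µM, or neither was given. The protocol names albumin at 20 µM as the carrier of the fatty acids and does not say whether cells without fatty acid received it. Cells then received betacellulin (BTC, a ligand of the EGF receptor family) at 20 ng/ml for 72 h or its vehicle, in medium with 1% serum. The groups are DHA+BTC, DHA+Veh, OLA+BTC, OLA+Veh, Veh+BTC and Veh+Veh, and cells of the last 2 had no fatty acid. The labels give the fatty acid time in more than 1 way, as 2 cycles of 48 h, as 96 h after replating and as 72 h, and both fatty acids share each of these entries. All groups come from 1 cell line, and the labels do not say whether the 5 experiments were separate thaws or passages, so each p-value reflects only how these cultures vary.

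NRF2, encoded by NFE2L2, is a transcription factor that cells keep scarce through KEAP1, an adaptor that presents it for degradation. Oxidants and electrophiles modify cysteines of KEAP1, NRF2 then accumulates, pairs with a small MAF protein and binds antioxidant response elements near genes for glutathione synthesis, thioredoxin recycling, quinone reduction and heme breakdown. BACH1 competes for the same elements and holds down HMOX1 in particular. Stellate cells lay down the scar matrix of liver fibrosis, and oxidative stress is among the signals known to activate them.

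The antioxidant response element has the core TGACNNNGC. Promoter windows, 250 bases before to 50 after the annotated start, were read from RefSeq (GRCh38.p14) for 7 of the 9 genes; those of HMOX1 and SLC7A11 were not used here. Shown are a gene that rose with DHA and holds the core (GCLM), a gene that did not pass the test and holds it 2 times (TXNRD1), and a gene that rose and has no match in this window (SQSTM1). Capitals mark the core in the orientation of the gene, so that a match on the other strand appears as its reverse complement. The windows are chr1:93909381-93909680 on the minus strand for GCLM, chr12:104215529-104215828 on the plus strand for TXNRD1 and chr5:179806143-179806442 on the plus strand for SQSTM1.
GCLM: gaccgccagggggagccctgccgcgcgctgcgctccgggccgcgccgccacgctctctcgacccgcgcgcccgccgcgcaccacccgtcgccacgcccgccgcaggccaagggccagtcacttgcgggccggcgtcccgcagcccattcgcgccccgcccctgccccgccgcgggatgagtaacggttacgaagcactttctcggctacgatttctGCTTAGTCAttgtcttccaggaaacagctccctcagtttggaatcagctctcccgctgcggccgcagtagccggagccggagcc
TXNRD1: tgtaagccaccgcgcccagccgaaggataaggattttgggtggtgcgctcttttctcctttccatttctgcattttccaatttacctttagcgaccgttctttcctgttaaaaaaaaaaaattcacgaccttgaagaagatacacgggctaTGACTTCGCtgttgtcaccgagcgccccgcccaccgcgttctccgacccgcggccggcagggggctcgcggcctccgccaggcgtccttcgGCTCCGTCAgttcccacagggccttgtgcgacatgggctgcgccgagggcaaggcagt
SQSTM1: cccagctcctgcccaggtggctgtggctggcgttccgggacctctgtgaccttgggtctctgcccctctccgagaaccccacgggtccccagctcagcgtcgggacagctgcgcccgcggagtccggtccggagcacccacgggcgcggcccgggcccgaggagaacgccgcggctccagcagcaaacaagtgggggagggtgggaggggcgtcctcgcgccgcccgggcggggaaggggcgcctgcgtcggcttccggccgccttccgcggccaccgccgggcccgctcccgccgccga

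The GCLM window held TGACTAAGC on the strand opposite to the gene, beginning 34 bases before the start, and TXNRD1 held TGACTTCGC on its own strand from 99 bases before the start and TGACGGAGC on the opposite strand from 8 bases before it. The core was present on either strand in 2 of the 7 windows, against 13.6% of 27305 RefSeq promoter windows of the same length. The looser pattern TGANNNNGC, which contains the core, was present in 4 of 7 windows (GCLM, TXNRD1, NQO1 and OSGIN1), against 42.1% of all windows. These matches are a description of the letters, and elements known for several targets lie outside such a window.

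DHA raised 5 of the 8 NRF2 target genes tested, averaged over the presence of BTC: HMOX1, SLC7A11, SQSTM1, GCLM and NQO1. HMOX1 and SLC7A11 were about 2.3-fold higher than in cells without fatty acid, SQSTM1 2.00-fold, GCLM 1.65-fold and NQO1 1.36-fold, with folds on the log2(CPM + 1) scale. GCLC, TXNRD1 and OSGIN1 did not pass the test. In the limma fit across all genes, 10.7% of the 15137 genes were called at a Benjamini-Hochberg adjusted p under 0.05 in this comparison, 2.33% of all higher and 8.38% lower. Of the 8 tested, 5 were higher in 5 of 5 experiments, against 3.2% of all genes. They were the 5 called genes, picked from the same libraries, so this is no separate result. The median log2 difference was 0.58 over the 8 target genes and -0.13 over all genes tested.

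**Figure D1:**
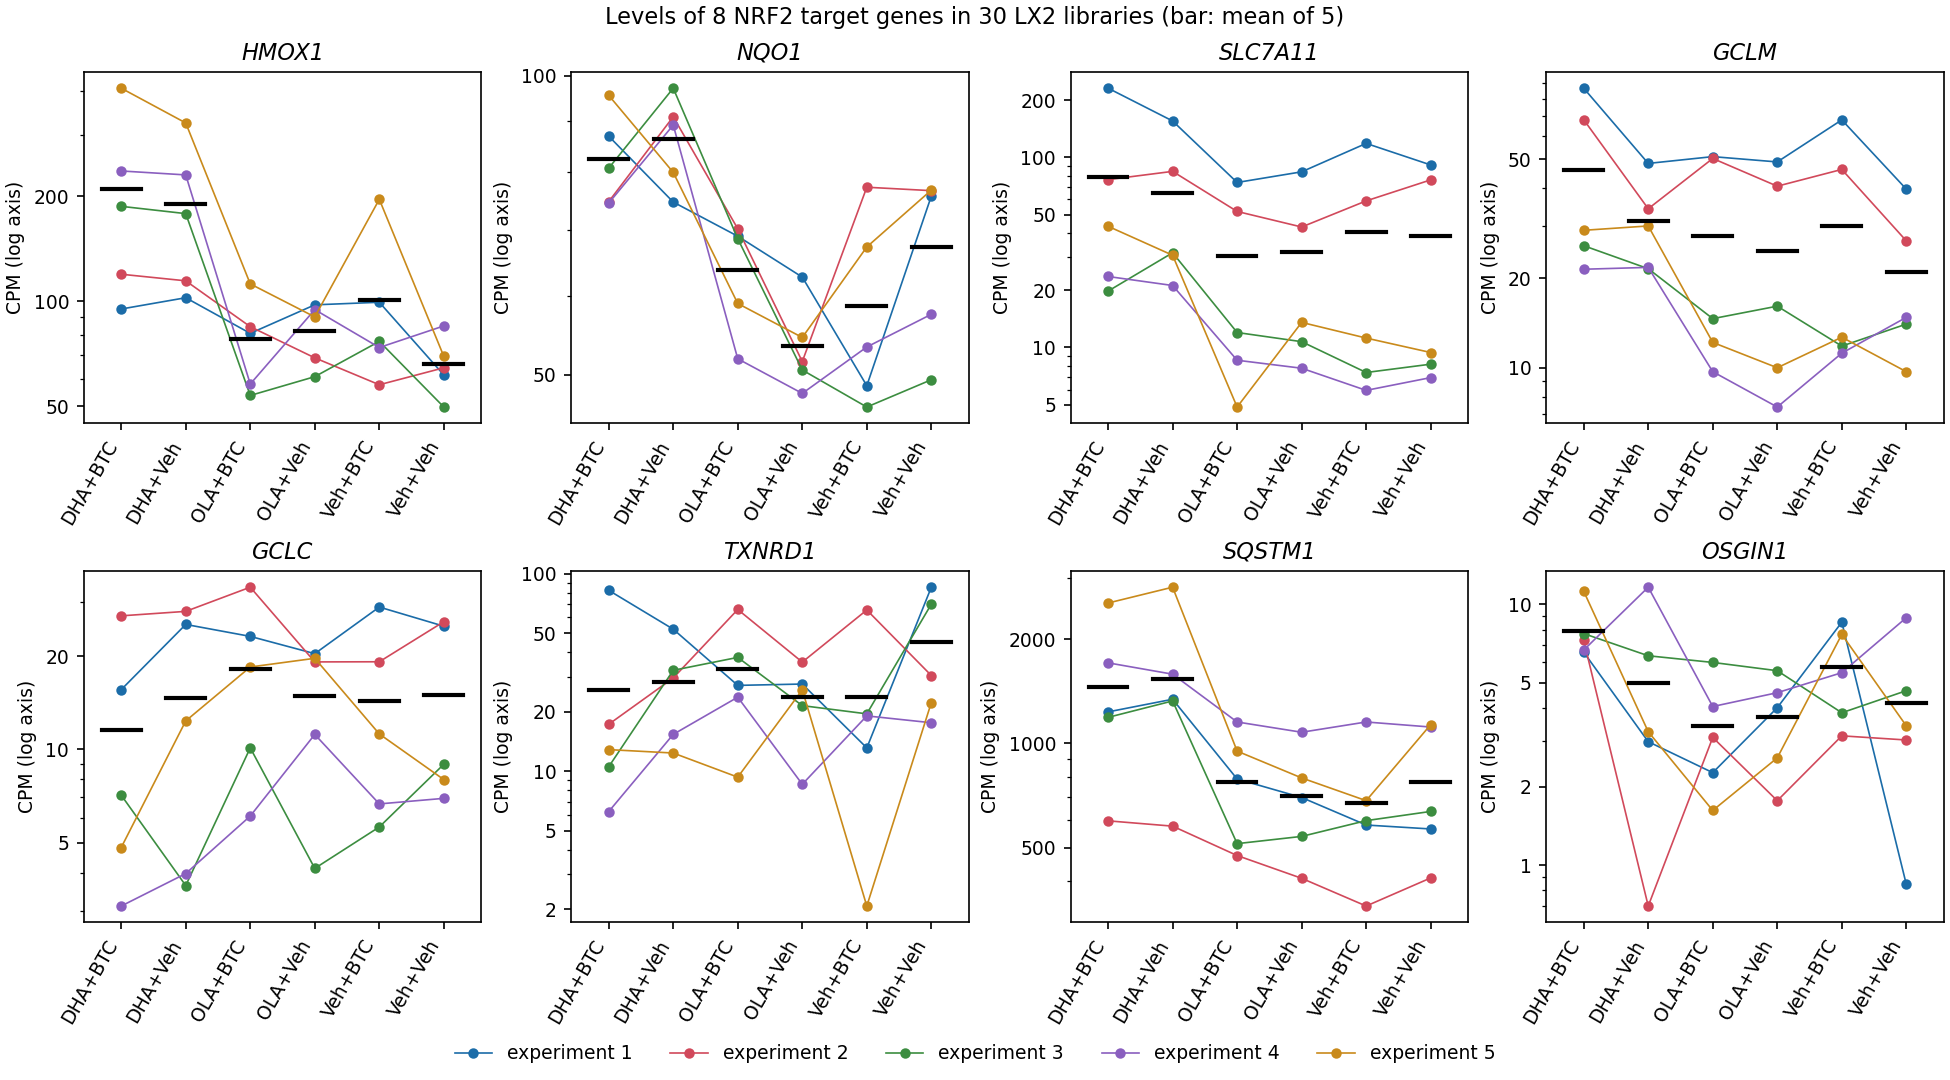
CPM of 8 NRF2 target genes (log axis) in the 6 groups, with 1 line per experiment and a bar for the mean of 5 libraries. In every experiment the SQSTM1 level of both DHA libraries lies above that of the other 4 libraries, whereas this holds in no experiment for GCLC or TXNRD1.

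HMOX1, heme oxygenase 1, breaks heme down to biliverdin, iron and carbon monoxide. Its level in experiments 1 to 5 was 95.1, 119.7, 187, 237 and 409 CPM in DHA+BTC and 102.5, 115, 179, 231 and 325 CPM in DHA+Veh. With OLA it was 81.0, 84.7, 53.8, 58.0 and 112 CPM in OLA+BTC and 97.8, 68.9, 60.9, 94.8 and 90.3 CPM in OLA+Veh. Without fatty acid it was 99.5, 57.7, 76.8, 73.8 and 196 CPM in Veh+BTC and 61.5, 64.5, 49.8, 85.1 and 69.6 CPM in Veh+Veh. In experiments 2 to 5 both DHA libraries were above the other 4 of the same experiment, and in experiment 1 the DHA+BTC library was below the OLA+Veh and Veh+BTC libraries. Across experiments the groups overlapped, since Veh+BTC of experiment 5 was above both DHA libraries of experiment 3. HMOX1 averaged 199.9 ± 103.5 CPM with DHA and 83.5 ± 42.1 CPM without fatty acid (SD, n = 10 each). The log2 difference was 1.20 (SE 0.18, 95% interval 0.83 to 1.57, adjusted p = 4.96e-05), and by experiment it was 0.33, 0.93, 1.55, 1.55 and 1.63.

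NQO1, a quinone reductase, was the steadiest across experiments of the 5 genes that rose. With DHA it was 86.9, 74.7, 80.7, 74.4 and 95.6 CPM in DHA+BTC and 74.6, 90.9, 97.2, 89.2 and 79.9 CPM in DHA+Veh. OLA libraries ran from 47.9 to 70.1 CPM with a median of 56.7, and libraries without fatty acid ran from 46.4 to 77.2 CPM with a median of 62.4. The DHA and OLA levels did not overlap, and the DHA and no fatty acid levels overlapped between 74.4 and 77.2 CPM. The mean was 84.4 ± 8.71 CPM with DHA and 62.9 ± 13.1 CPM without fatty acid, a log2 difference of 0.44 (SE 0.12, 95% interval 0.21 to 0.68, adjusted p = 0.0121, higher in 5 of 5 experiments). This call was lost without experiment 3 (log2 difference 0.33, adjusted p = 0.121), without experiment 4 (0.41, adjusted p = 0.0828), where only the groups compared were fitted (0.44, adjusted p = 0.0513) and where the libraries with and without BTC were averaged within each experiment (0.44, adjusted p = 0.0872).

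SLC7A11, the cystine and glutamate exchanger that brings in cystine for glutathione, showed the widest spread between experiments. Its level in experiments 1 to 5 was 231, 76.3, 19.8, 23.6 and 43.4 CPM in DHA+BTC and 155, 84.3, 31.5, 21.2 and 30.6 CPM in DHA+Veh. With OLA it was 73.7, 51.9, 12.0, 8.57 and 4.86 CPM in OLA+BTC and 83.9, 43.0, 10.7, 7.78 and 13.6 CPM in OLA+Veh. Without fatty acid it was 118, 59.0, 7.39, 5.95 and 11.2 CPM in Veh+BTC and 91.2, 76.1, 8.17, 6.95 and 9.41 CPM in Veh+Veh. The 2 DHA libraries were the highest of their experiment in all 5 experiments, while the levels without fatty acid in experiments 1 and 2 lay above the DHA levels of experiments 3 to 5. The mean was 71.7 ± 70.0 CPM with DHA and 39.4 ± 42.8 CPM without fatty acid (SD, n = 10 each). Within experiments the log2 difference was 1.21 (SE 0.19, 95% interval 0.83 to 1.60, adjusted p = 6.84e-05), and by experiment it was 0.86, 0.26, 1.57, 1.65 and 1.73.

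GCLM and GCLC encode the modifier and the catalytic subunit of glutamate-cysteine ligase, which carries out the rate-limiting step of glutathione synthesis, and they did not move together. GCLM was at 86.7, 68.0, 25.7, 21.4 and 28.9 CPM in DHA+BTC and 48.5, 34.2, 21.5, 21.7 and 29.9 CPM in DHA+Veh. Without fatty acid it was at 67.8, 46.3, 11.8, 11.2 and 12.7 CPM in Veh+BTC and 39.7, 26.6, 14.0, 14.8 and 9.70 CPM in Veh+Veh. Each DHA library was above the library without fatty acid that had the same BTC treatment in the same experiment, 10 of 10 pairs. The log2 difference of GCLM was 0.72 (SE 0.17, 95% interval 0.38 to 1.07, adjusted p = 0.00546), at levels of 38.6 ± 22.4 CPM with DHA and 25.5 ± 19.7 CPM without fatty acid. The difference was 0.57 when experiment 5 was left out (adjusted p = 0.0648).

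GCLC was at 15.6, 27.0, 7.11, 3.12 and 4.82 CPM in DHA+BTC and 25.3, 27.9, 3.63, 3.97 and 12.4 CPM in DHA+Veh. Without fatty acid it was at 28.8, 19.2, 5.62, 6.67 and 11.2 CPM in Veh+BTC and 25.0, 25.8, 8.95, 6.95 and 7.99 CPM in Veh+Veh. The groups overlapped, and the DHA average was the lower one in 4 of 5 experiments. The log2 difference of GCLC was -0.31 (95% interval -0.75 to 0.13, adjusted p = 0.387), an interval that leaves out a rise of the size seen for GCLM.

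SQSTM1 (p62), a selective autophagy receptor that also binds KEAP1, was the most abundant of the target genes. In DHA+BTC it was at 1232, 597, 1188, 1707 and 2541 CPM, and in DHA+Veh at 1340.0, 576, 1325, 1583 and 2823 CPM. OLA+BTC had 789, 474, 513, 1152 and 949 CPM and OLA+Veh had 697, 407, 538, 1076 and 794 CPM. Veh+BTC had 581, 339, 598, 1152 and 683 CPM and Veh+Veh had 566, 408, 636, 1114 and 1132 CPM. Both DHA libraries were above the other 4 in each of the 5 experiments. The mean was 1491 ± 728 CPM with DHA and 721 ± 302 CPM without fatty acid, a log2 difference of 1.00 (SE 0.13, 95% interval 0.73 to 1.26, adjusted p = 8.87e-06), and by experiment it was 1.16, 0.66, 1.02, 0.54 and 1.61. On the opposite strand SQSTM1 overlaps MGAT4B (mean 699 CPM) over 1.75% of its span and MRNIP (mean 46.6 CPM) over 9.3%, and the strand setting of the counting is not given in the sources used here.

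TXNRD1, the cytosolic thioredoxin reductase, varied widely between libraries. Its level in experiments 1 to 5 was 82.3, 17.3, 10.5, 6.24 and 12.9 CPM in DHA+BTC and 52.3, 29.6, 32.4, 15.4 and 12.4 CPM in DHA+Veh. Without fatty acid it was 13.1, 65.4, 19.5, 19.0 and 2.08 CPM in Veh+BTC and 85.4, 30.5, 70.0, 17.6 and 22.2 CPM in Veh+Veh. Experiment 1 held the highest library of DHA+BTC, DHA+Veh and Veh+Veh, and experiment 2 that of Veh+BTC. The log2 difference was -0.22 (95% interval -0.91 to 0.46, adjusted p = 0.742), with 27.1 ± 23.8 CPM with DHA and 34.5 ± 28.4 CPM without fatty acid. Split by BTC, DHA+BTC against Veh+BTC was higher in 2 and lower in 3 of 5 experiments, from -1.86 to 2.56 (log2 difference 0.11, adjusted p = 0.929). DHA+Veh against Veh+Veh was lower in 5 of 5 experiments, from -1.09 to -0.04 (log2 difference -0.56, adjusted p = 0.635), and neither passed the test. RPL18AP3, a processed pseudogene on the same strand inside the span of TXNRD1, averaged 49.8 CPM, and reads could be assigned to either.

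OSGIN1, which encodes an inhibitor of growth induced by oxidative stress, was the least abundant target gene with reads. Its level was 6.56, 7.28, 7.73, 6.69 and 11.2 CPM in DHA+BTC and 2.98, 0.697, 6.36, 11.7 and 3.25 CPM in DHA+Veh, against 8.55, 3.13, 3.84, 5.48 and 7.68 CPM in Veh+BTC and 0.843, 3.02, 4.67, 8.90 and 3.42 CPM in Veh+Veh. The groups overlapped. The log2 difference was 0.28 (95% interval -0.27 to 0.83, adjusted p = 0.567, higher in 4 of 5 experiments). Between 2 and 44 reads per library stood behind these values.

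SRXN1, sulfiredoxin, which restores overoxidised peroxiredoxins, was listed at 0 in all 30 libraries. The limit that a count of 0 allows, 3 reads, corresponded to 0.316 CPM in the deepest library and 2.41 CPM in the shallowest; such limits cover counting error only. In the annotation used here, the gene AL121758.1 covers 99.8% of the span of SRXN1 on the same strand, and it was also listed at 0 in all 30 libraries. No level of SRXN1 can be given from this table.

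**Figure D2:**
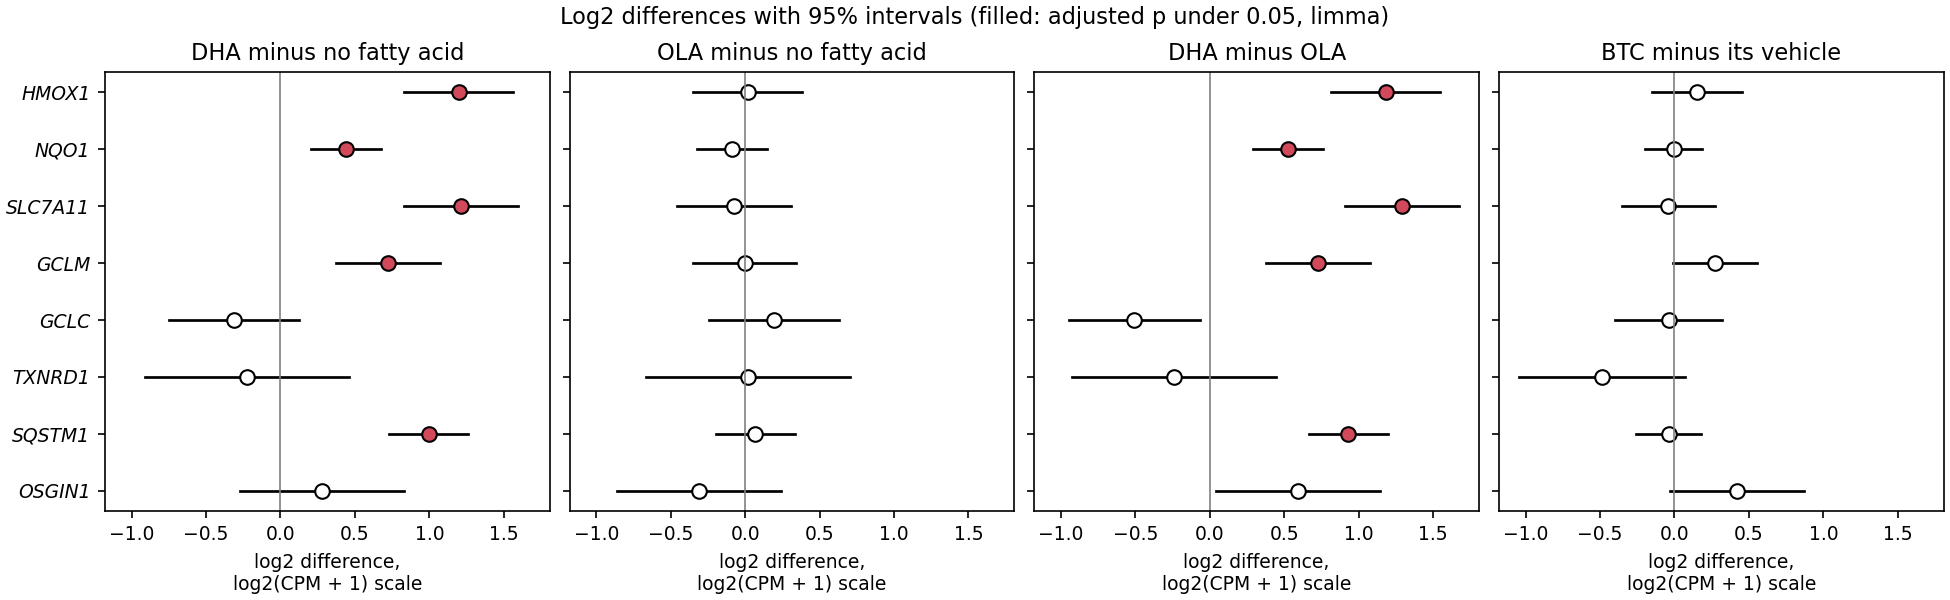
Log2 differences (log2(CPM + 1) scale, x axis) of 8 NRF2 target genes with 95% intervals in 4 comparisons, filled where the adjusted p was under 0.05. HMOX1, NQO1, SLC7A11, GCLM and SQSTM1 are filled in both DHA panels and no gene is filled in the OLA and BTC panels.

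DHA and OLA were compared at the same dose and schedule, which is the only pair of fatty acids in the design. The 5 genes that rose against no fatty acid were also higher with DHA than with OLA, and both comparisons share the DHA libraries. In this comparison 11.4% of all genes were called, 2.4% of all higher and 8.96% lower. The log2 difference was 1.18 for HMOX1 (95% interval 0.81 to 1.55, adjusted p = 6.04e-05) and 1.29 for SLC7A11 (0.91 to 1.67, adjusted p = 3.56e-05). SQSTM1 was higher by 0.93 (0.66 to 1.20, adjusted p = 2.39e-05), GCLM by 0.73 (0.38 to 1.07, adjusted p = 0.00561) and NQO1 by 0.53 (0.29 to 0.76, adjusted p = 0.00311). Averaged over BTC, these 5 genes and OSGIN1 were higher with DHA in 5 of 5 experiments, 6 of the 8 tested, against 3.02% of all genes. Without BTC, GCLM was lower in DHA+Veh than in OLA+Veh in experiments 1 (48.47 and 49.03 CPM) and 2 (34.15 and 40.65 CPM). OSGIN1 was lower in the same experiments, at 2.98 and 4.02 CPM and at 0.697 and 1.77 CPM. In the other experiments without BTC, and in all 5 with BTC, both genes were higher with DHA.

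OSGIN1 averaged 6.44 ± 3.46 CPM with DHA and 3.56 ± 1.54 CPM with OLA, which differ by 0.59 on the log2 scale (95% interval 0.04 to 1.14) and did not pass the test (adjusted p = 0.153). GCLC averaged 13.1 ± 10.2 CPM with DHA and 16.6 ± 8.79 CPM with OLA, differing by -0.51 on the log2 scale (95% interval -0.94 to -0.07, adjusted p = 0.121). TXNRD1 differed by -0.24 (95% interval -0.93 to 0.44, adjusted p = 0.686). The call of GCLM in this comparison was lost without experiment 4 (0.59, adjusted p = 0.0697) and without experiment 5 (0.57, adjusted p = 0.0685).

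OLA changed none of the 8 genes against no fatty acid in the limma fit, and 0% of all genes were called. At an unadjusted p under 0.05 there were 302 of 15137 genes and 0 of the 8, and edgeR and DESeq2 also called 0 of the 8. Each adjusted p was 0.9995. The 95% intervals of the log2 difference were -0.35 to 0.38 for HMOX1, -0.32 to 0.15 for NQO1, -0.46 to 0.31 for SLC7A11, -0.35 to 0.34 for GCLM and -0.20 to 0.33 for SQSTM1. For these 5 genes the upper bound with OLA was below the difference that DHA gave over no fatty acid. The intervals of GCLC (-0.24 to 0.63), TXNRD1 (-0.67 to 0.70) and OSGIN1 (-0.86 to 0.24) were wider.

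BTC changed none of the 8 genes against its vehicle, averaged over the 3 pretreatments, and 0% of all genes were called in the limma fit. At an unadjusted p under 0.05 there were 609 genes and 0 of the 8, and edgeR and DESeq2 called 0 of the 8. The log2 difference was 0.27 for GCLM (95% interval -0.01 to 0.56), 0.42 for OSGIN1 (-0.03 to 0.87), -0.49 for TXNRD1 (-1.04 to 0.07) and 0.15 for HMOX1 (-0.15 to 0.45). NQO1, SLC7A11, GCLC and SQSTM1 were within 0.05 of 0 on the log2 scale, with no interval reaching past -0.40 or 0.32. GCLM averaged 34.6 ± 25.3 CPM with BTC and 25.6 ± 14.1 CPM with vehicle (SD, n = 15 each), higher in 3 of 5 experiments.

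The DHA difference was also tested with and without BTC. With BTC, DHA+BTC against Veh+BTC, 3 of the 8 rose: HMOX1 by 1.00 (adjusted p = 0.023), SLC7A11 by 1.26 (adjusted p = 0.00691) and SQSTM1 by 1.07 (adjusted p = 0.00142), where 3.55% of all genes were called and 1.08% were called higher. Without BTC, DHA+Veh against Veh+Veh, 3 of the 8 rose as well: HMOX1 by 1.40 (adjusted p = 0.00284), SLC7A11 by 1.16 (adjusted p = 0.0193) and SQSTM1 by 0.92 (adjusted p = 0.00734), where 1.54% of all genes were called and 0.595% were called higher. GCLM differed by 0.79 with BTC (adjusted p = 0.0602) and by 0.65 without BTC (adjusted p = 0.177), and NQO1 by 0.51 with BTC (adjusted p = 0.0766) and by 0.37 without BTC (adjusted p = 0.27).

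These calls within 1 BTC level rested on few libraries. In DHA+BTC against Veh+BTC, HMOX1 was lost without library 3, 4 or 5 of DHA+BTC or 2, 3 or 4 of Veh+BTC, with an adjusted p of up to 0.115, and without experiment 3, 4 or 5 (up to 0.148). SLC7A11 was lost there without experiment 4 (adjusted p = 0.0611). All 3 calls of that comparison were lost when only its own 2 groups were fitted (adjusted p 0.292 for HMOX1, 0.212 for SLC7A11 and 0.23 for SQSTM1). In DHA+Veh against Veh+Veh, leaving out experiment 3 took all 3 calls away (adjusted p 0.0739 for HMOX1, 0.189 for SLC7A11 and 0.0841 for SQSTM1), and SLC7A11 was lost without library 3, 4 or 5 of DHA+Veh or of Veh+Veh (up to 0.0835) and without experiment 4 or 5.

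Whether BTC altered the DHA response was tested as an interaction. In the limma fit none of the 8 genes was called and 0% of all genes were (527 at an unadjusted p under 0.05, 0 of the 8 among them). Nor did edgeR or DESeq2 call any of the 8. The interaction was -0.41 for HMOX1 (95% interval -1.14 to 0.33), 0.10 for SLC7A11 (-0.66 to 0.87), 0.15 for SQSTM1 (-0.39 to 0.68), 0.14 for GCLM (-0.56 to 0.83) and 0.13 for NQO1 (-0.34 to 0.60). For GCLM and NQO1 the interval reached past the DHA difference itself, 0.72 and 0.44. For OLA the interaction also called 0% of all genes in the limma fit (1279 at an unadjusted p under 0.05, with 1 of the 8 among them, TXNRD1). With edgeR and DESeq2, 0 of the 8 were called. TXNRD1 had the largest value of the 8 there, 1.55 (95% interval 0.18 to 2.92, adjusted p = 0.584).

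The share of variation that lay between experiments separated the target genes into distinct patterns. In log2(CPM + 1), 79.0% of the variation of SLC7A11, 76.4% of that of GCLC and 74.3% of that of GCLM lay between experiments, against a median of 47.7% over all genes tested. HMOX1 had 22.1% and NQO1 9.37% between experiments, with 56.3% and 62.3% between the 6 groups, against a median of 11.3% over all genes. TXNRD1 and OSGIN1 had 43.6% and 47.6% in neither. Experiments 1 and 2 were the high ones for the 3 genes of glutathione synthesis: SLC7A11 averaged 125.5 and 65.1 CPM there and 14.9, 12.3 and 18.8 CPM in experiments 3 to 5, and GCLM averaged 57.1 and 44.3 CPM there and 17.3, 14.4 and 17.2 CPM in experiments 3 to 5. HMOX1 and SQSTM1 were highest in experiment 5, at 200.4 and 1487 CPM.

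**Figure D3:**
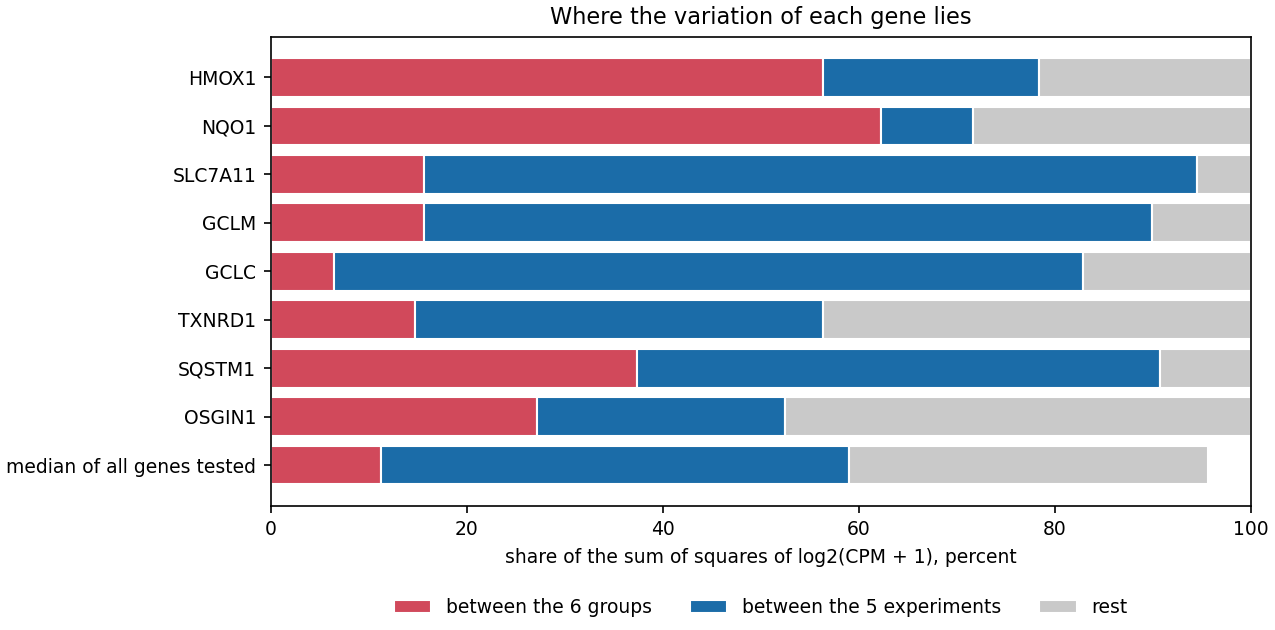
Share of the sum of squares of log2(CPM + 1) in percent (x axis) between the 6 groups, between the 5 experiments and the rest, for 8 NRF2 target genes and for the median of all genes tested. NQO1 and HMOX1 vary mostly between groups and SLC7A11, GCLC and GCLM mostly between experiments; the bottom bar stacks 3 separate medians and so does not reach 100.

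With each experiment mean subtracted, the 5 genes that rose correlated positively with each other over the 30 libraries. Group differences were left in, and these 5 genes were picked by their rise with DHA. Positive values among them follow in part from that choice and are no separate result. Pearson correlations on log2(CPM + 1) were 0.787 between HMOX1 and SLC7A11, 0.779 between SLC7A11 and SQSTM1, 0.778 between HMOX1 and GCLM and 0.763 between NQO1 and SLC7A11. GCLC correlated negatively with each of the 5, from -0.436 to -0.544, and TXNRD1 correlated at -0.469 with HMOX1. Over all 28 pairs the median was 0.262, and 18 were above 0.

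**Figure D4:**
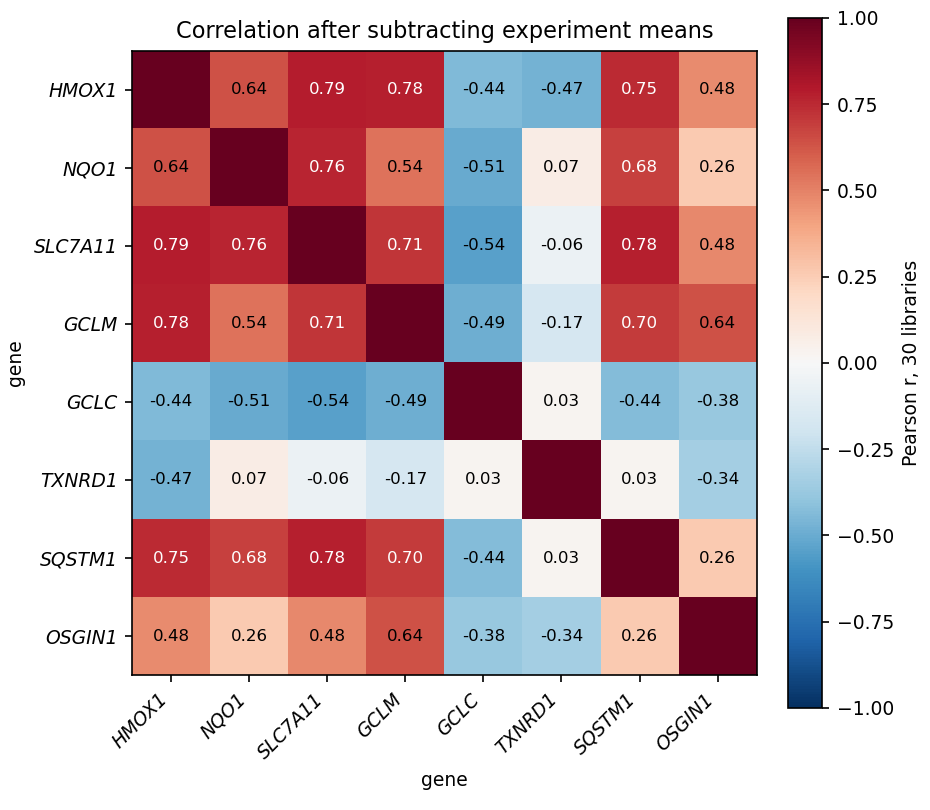
Pearson r between 8 NRF2 target genes over 30 libraries on log2(CPM + 1), with each experiment mean subtracted; both axes list the genes and colour gives r. HMOX1, NQO1, SLC7A11, GCLM and SQSTM1 form a block of positive values, and GCLC is negative with all of them.

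The genes most like each target by this measure, among those with a mean of at least 5 CPM, were MMP1, an interstitial collagenase (0.935), GYS1 (0.926) and SMOX (0.926) for HMOX1, and MT2A, a metallothionein (0.956), NFKBIA (0.939) and ZC3H12A (0.939) for SQSTM1. For SLC7A11 they were TMEM45A (0.876), TFPI2 (0.874) and CXCL8, a neutrophil chemokine (0.86), and for GCLM they were DNER (0.863), SERPINB8 (0.837) and DDIT3 (0.807). NQO1 was most like TPBG (0.833), BNIP3 (0.819) and SERPINE2 (0.816). All the genes named for these 5 targets were themselves called higher with DHA against no fatty acid. Their likeness thus includes that shared difference between groups. The best likeness of GCLC was lower, 0.679 with CKB, and that of OSGIN1 was 0.748 with USP53. TXNRD1 was most like HNRNPA3 (0.936), SEH1L (0.923) and CLPTM1L (0.916), none of which was called in a DHA comparison.

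Other genes of the pathway were read from 7 lists, and most of their members did not pass the test with DHA. Of the 10 regulators of NRF2, 1 rose and 0 fell against no fatty acid, beside 2.33% higher and 8.38% lower (10.7% called in all) over all genes. The gene that rose was MAFF, a small MAF partner, with 83.2 ± 29.0 CPM with DHA and 52.1 ± 14.8 CPM without fatty acid (SD, n = 10 each), a log2 difference of 0.65 (adjusted p = 0.00142, higher in 4 of 5 experiments). NFE2L2 itself averaged 12.0 ± 10.2 CPM with DHA and 14.8 ± 13.8 CPM without fatty acid (log2 difference -0.22, adjusted p = 0.617), and KEAP1 averaged 144 ± 61.1 CPM with DHA and 135 ± 31.0 CPM without fatty acid (0.04, adjusted p = 0.897). BACH1 averaged 16.0 ± 10.5 CPM with DHA and 9.78 ± 7.90 CPM without fatty acid (0.55, adjusted p = 0.217). Against OLA, DHA differed by -0.28 for NFE2L2, 0.03 for KEAP1 and 0.46 for BACH1, with no call. The log2 difference of these 3 genes lay between -0.10 and 0.09 with OLA against no fatty acid and with BTC against its vehicle. The median log2 difference of this list was 0.17, beside -0.13 over all genes.

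Among the other glutathione and thioredoxin targets, 1 of 11 tested rose and 0 fell, beside 2.33% higher and 8.38% lower over all genes. It was SLC3A2, the heavy chain that pairs with SLC7A11, at 143 ± 33.3 CPM with DHA and 81.8 ± 31.6 CPM without fatty acid, a log2 difference of 0.87 (adjusted p = 4.96e-05, higher in 5 of 5 experiments). GSR, TXN and PRDX1, which recycle glutathione or handle peroxide through thioredoxin, differed by -0.27, 0.47 and 0.36 and did not pass the test. Of 16 tested targets in detoxification and export, 2 rose and 1 fell, beside the same shares over all genes. AKR1B1, an aldose reductase, rose by 1.17 (adjusted p = 0.000686), AKR1C1, another aldo-keto reductase, rose by 1.27 (16.3 ± 12.2 CPM with DHA and 5.73 ± 4.29 CPM without fatty acid, adjusted p = 0.00718), and CBR3, a carbonyl reductase, fell by 0.72 (adjusted p = 0.011). AKR1C1 is nearly identical to AKR1C2, which did not reach the level for testing, and reads could be split between them. AKR1C1 was lost without experiment 3 (adjusted p = 0.0526), and CBR3 without experiment 4 (0.129) or 5 (0.0923), after quantile normalization (0.0501) and with edgeR (0.0549).

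None of the 6 NADPH supply genes rose and 2 fell: IDH1 by 0.85 (adjusted p = 0.00344) and PGD by 0.44 (adjusted p = 0.0198), both lower in 5 of 5 experiments. Over all genes 8.38% fell and 2.33% rose, and the share of all genes lower in 5 of 5 experiments is not given here. The call of PGD was lost after median-of-ratios scaling (adjusted p = 0.152) and quantile normalization (0.142), with edgeR (0.157) and DESeq2 (0.129), and without experiment 1, 3 or 4 (up to 0.133). IDH1 was lost without experiment 4 (adjusted p = 0.0595). Of the 6 genes of heme and iron handling and the 12 tested genes listed as antioxidant enzymes outside the NRF2 lists, 0 were called. TXNIP, a thioredoxin inhibitor, was among these 12, and SOD2 and GPX3 were listed but not tested. FTH1 and FTL, the ferritin chains, differed by 0.77 (adjusted p = 0.143) and 0.39 (adjusted p = 0.0986). The 6 genes of heme and iron handling had a median log2 difference of -0.07, and 3 of them were above 0. The 12 genes listed as antioxidant enzymes had a median log2 difference of -0.26, with GPX1 at -0.52 (adjusted p = 0.0749), GPX4 at -0.30 (adjusted p = 0.146) and CAT at -0.28 (adjusted p = 0.591).

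ATF4, which drives an amino acid and endoplasmic reticulum stress program, also regulates SLC7A11, so ATF4 and its targets were listed beside the NRF2 lists. ASNS of this list was not tested. Of 11 tested, 4 rose and 0 fell with DHA against no fatty acid, beside 2.33% higher and 8.38% lower over all genes. DDIT4 rose by 2.38 (adjusted p = 4.96e-05; 1.63 without experiment 5 and 1.60 without the 3 shallowest libraries), DDIT3 by 1.05 (adjusted p = 2.64e-05), ATF4 by 0.64 (adjusted p = 0.024) and SESN2 by 0.49 (adjusted p = 0.016). CHAC1, which degrades glutathione, and TRIB3 differed by 0.23 and 0.21 and did not pass the test. The median log2 difference of this list was 0.21, beside -0.13 over all genes, and 7 of the 11 tested were above 0. The call of ATF4 was lost without experiment 2, 3, 4 or 5 (adjusted p up to 0.172) and without library 5 of DHA+BTC, DHA+Veh or Veh+Veh or library 3 of Veh+Veh (up to 0.0649), and that of SESN2 without experiment 3, 4 or 5 (up to 0.168). Both were lost without the 3 shallowest libraries (adjusted p 0.392 and 0.138).

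**Figure D5:**
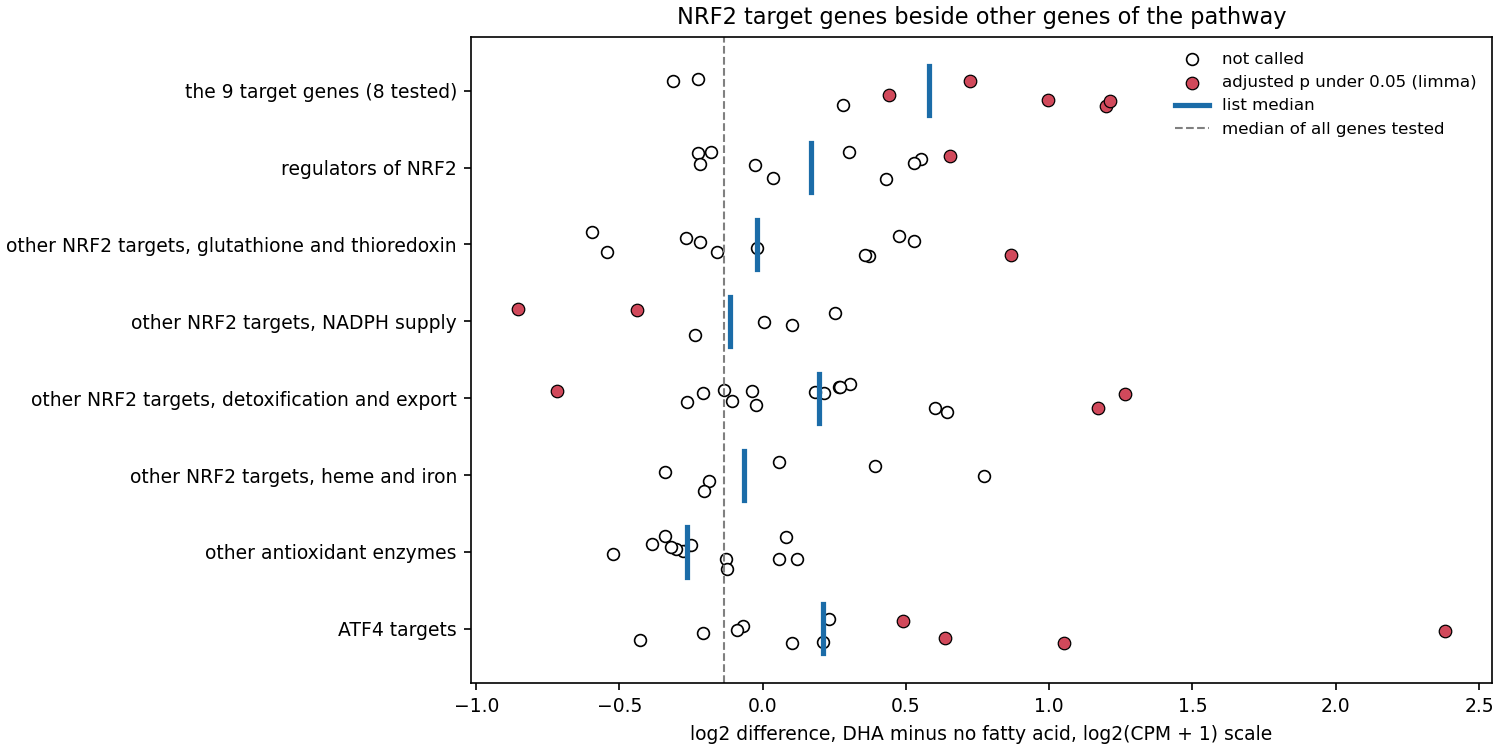
Log2 difference of DHA minus no fatty acid (log2(CPM + 1) scale, x axis) for each tested gene of 8 groups of genes; filled points have an adjusted p under 0.05, bars are list medians and the dashed line is the median of all genes tested, -0.13. The NRF2 target genes have the highest list median, 0.58, and the filled points on the far right are DDIT4, AKR1C1, SLC7A11 and HMOX1.

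Against OLA, DHA gave the same calls in these lists except for PGD, and in addition MAFK rose (log2 difference 0.55, adjusted p = 0.023), AIFM2 rose (0.52, adjusted p = 0.00751), GSTA4 fell by 0.78 (adjusted p = 0.0183) and GPX1 fell by 0.61 (adjusted p = 0.0345). Both comparisons share the DHA libraries, and each of these 4 calls was lost under some alternatives. MAFK was lost without experiment 2, 3, 4 or 5 (adjusted p up to 0.141) and without library 5 of DHA+Veh or OLA+Veh or 4 of OLA+BTC (up to 0.0637). AIFM2 was lost without experiment 4 (0.117), GSTA4 without experiment 3 or 4 (up to 0.0875), without library 4 of OLA+BTC (0.0505) and after quantile normalization (0.096). GPX1 was lost without experiment 2, 4 or 5 (up to 0.267), after both other scalings and without any of 6 single libraries of experiments 2 and 5 (up to 0.0852). No gene of the 7 lists was called with OLA against no fatty acid or with BTC against its vehicle.

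Some library measures moved with DHA. DHA libraries held 3028129 ± 1074169 reads, OLA libraries 4200426 ± 818122 and libraries without fatty acid 4515158 ± 1933237 (SD, n = 10 each), and the DHA library had fewer reads than its partner without fatty acid in 8 of 10 pairs. Genes with reads numbered 15396 ± 1593 with DHA, 16920 ± 665 with OLA and 16755 ± 1238 without fatty acid. Of all 30, the 3 with the fewest reads came from DHA cells: both libraries of experiment 5 and the BTC library of experiment 4. Without these 3, which was tried after the data had been seen, 4 of the 8 target genes were still called with DHA against no fatty acid, and GCLM was not (log2 difference 0.57, adjusted p = 0.0756). Mitochondrial transcripts were 2.43% ± 0.421 of reads with DHA and 2.90% ± 0.71 without fatty acid, lower in 8 of 10 pairs. Ribosomal protein genes took 12.6% ± 3.18 of reads with DHA and 11.4% ± 2.06 without fatty acid, and the 10 most abundant genes took 9.56% ± 2.26 with DHA and 8.00% ± 1.60 without fatty acid, each higher with DHA in 8 of 10 pairs.

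Of 11 markers of activated stellate or mesenchymal cells, 9 passed the same filter on level, all but DES and LRAT, with a median summed level of 2591 CPM with DHA, 3347 CPM with OLA and 3561 CPM without fatty acid. None of 5 hepatocyte markers passed it, TTR was at 0 in all 30 libraries, and their sum was at most 2.16 CPM. Epithelial markers, of which 3 of 4 passed the filter and EPCAM did not, summed to 28.4 to 158 CPM with DHA, 14.8 to 35.3 CPM with OLA and 10.5 to 76.8 CPM without fatty acid. Leukocyte markers, of which 4 of 5 passed and CD3E was at 0 in all 30 libraries, summed to 8.20 to 53.9 CPM with DHA, 14.7 to 55.0 CPM with OLA and 11.0 to 53.5 CPM without fatty acid. Of 4 endothelial markers only PECAM1 passed, with median sums of 4.53 CPM with DHA, 3.32 CPM with OLA and 4.01 CPM without fatty acid. The part of these differences in the levels of the target genes was not tested, and in such bulk libraries fewer cells of a kind and less RNA per cell cannot be told apart.

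The scaling of the libraries moved the differences of DHA against no fatty acid over all genes. The median over all genes was -0.13 with the deposited CPM, -0.05 after median-of-ratios scaling and close to 0 after quantile normalization, and the split of called genes was 352 higher and 1269 lower with the first, 528 and 753 with the second and 520 and 661 with the third. Relative to that median, HMOX1 was higher by 1.33 with the deposited CPM, 1.37 after median-of-ratios scaling and 1.26 after quantile normalization. NQO1, with the smallest rise, was higher than that median by 0.57, 0.61 and 0.52 in the same order. All 5 target genes that rose were called under each scaling.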

How the data were processed

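The deposited table gives CPM (counts scaled to a fixed total per library) for 61597 genes in 30 libraries, and 61398 identifiers (99.7%) matched a symbol; 0 of its columns were left unused. The authors prepared 3′ libraries (Lexogen QuantSeq FWD), per the labels' protocols, and per the submitters' processing notes used HTSeq 0.6.0 and STAR 2.5.3a. The build, annotation release and strand setting are not given in the sources used here. The low CPM values gave back whole read counts for 100% of the deposited values, within 0.01 of a read; libraries held 1245182 to 9490142 reads (median 3683035), and these counts served edgeR and DESeq2.

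Genes had to reach 1 CPM in 5 or more libraries, which 15137 did, and their log2(CPM + 1) was fitted with limma 3.58.1 (R 4.3.3, trend option), with 6 groups and the experiment as a block over all 30 libraries, and p-values were adjusted by Benjamini-Hochberg over all genes. Comparisons averaged over BTC treat the 2 libraries of an experiment as independent, so their p-values may be too small; 1 mean value per experiment was therefore an alternative, beside edgeR 4.0.16, DESeq2 1.42.0, other scalings, filters and pseudocounts, and leaving out libraries or experiments. The experiment number in the titles pairs the samples. Over 75 pairs of the same experiment the deviations from group means correlated at 0.119 to 0.743 (median 0.507). Over 300 pairs of different experiments they ran from -0.743 to 0.696 (median -0.169). Subtracting group means by itself pushes pairs of different experiments below 0 on average where those of the same experiment correlate. The procedure was tested on simulated data. The text names all 9 targets, NFE2L2, KEAP1 and BACH1, up to 4 called genes with the smallest p per list and comparison, and for each target the 3 genes at a mean of 5 CPM or more with the highest Pearson r. The uncalled list genes with values (GSR, TXN, PRDX1, FTH1, FTL, GPX1, GPX4, CAT, CHAC1 and TRIB3) were named after their values were seen. The target genes and the gene lists were chosen with earlier results of these data known.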

Additional observations from a re-analysis of the deposited data

Results flagged for a closer look

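In 48 groups of 5 libraries (8 genes in 6 groups), 4 had a library that stood apart from the other 4 by Dixon's test at the 95% level. For normal and independent values chance alone gives about 1 group in 20. The test used CPM without regard to experiment, so that rate is only a rough guide here. In DHA+BTC, SLC7A11 of experiment 1 was at 230.8 CPM and the next library at 76.3 CPM, and experiment 1 was the highest for this gene in each of the 6 groups. TXNRD1 of the same library was at 82.3 CPM and the next at 17.3 CPM. OSGIN1 of experiment 5 in DHA+BTC was at 11.2 CPM and the next at 7.73 CPM. In Veh+BTC, TXNRD1 of experiment 2 was at 65.4 CPM and the next at 19.5 CPM. With any 1 library left out, these among them, SLC7A11 was still called with DHA against no fatty acid and TXNRD1 and OSGIN1 were not.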

How the results depend on the processing

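With DHA against no fatty acid, 5 of the 8 target genes were called at pseudocounts of 0.5 and 0.1, without the filter, with a filter of 5 CPM, under both other scalings, with edgeR and DESeq2 and without any 1 library. The number was 4 with only the groups compared, with 1 mean value per experiment, without experiment 3, 4 or 5 and without the 3 shallowest libraries, an alternative added after the data were seen. Without the replicate block 1 of 8 was called (HMOX1) in each averaged DHA comparison, with 104 and 68 genes in all, and 0 in each DHA comparison at 1 BTC level. Over all genes, 1621 were called, against 950 with edgeR, 1001 with only the groups compared, 784 with 1 mean value per experiment and 575 without the 3 shallowest libraries. The number over all genes without experiment 3, 4 or 5 is not given here.

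In DHA+BTC against Veh+BTC, 3 target genes were called in the limma fit, where 3.55% of all genes were. The number was 5 under median-of-ratios scaling, quantile normalization and DESeq2, and 0 with only the groups compared. It was 1 without experiment 4, 1 without the 3 shallowest libraries, and 2 to 4 without 1 library. In DHA+Veh against Veh+Veh, 3 were called in the limma fit (1.54% of all genes) and 0 without experiment 3. The share of all genes called under each of these alternatives is not given here. These numbers therefore do not tell a change of the target genes from a change over all genes. The cause was not tested.

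None of the log2 differences below that turned sign was called. In DHA+BTC against Veh+BTC, TXNRD1 (0.11) ran from -0.50 to 0.61 without 1 experiment and from -0.33 to 0.52 without 1 library. In DHA+Veh against Veh+Veh, OSGIN1 (0.11) ran from -0.14 to 0.45 without 1 experiment and from -0.21 to 0.41 without 1 library, and GCLC (-0.22) from -0.41 to 0.0048 without 1 experiment. For BTC, NQO1 was 0.0213 under median-of-ratios scaling, 0.0173 under quantile normalization, 0.00477 with edgeR, 0.0208 with DESeq2, 0.0144 without experiment 1, 0.0128 without experiment 4 and -0.0392 to 0.0200 without 1 library. GCLC was 0.0101 under quantile normalization, 0.0428 without experiment 4, 0.0214 without experiment 5, 0.104 without the 3 shallowest libraries and -0.0999 to 0.0313 without 1 library. SLC7A11 was 0.018 with DESeq2, 0.0011 without experiment 3 and -0.103 to 0.0464 without 1 library, and SQSTM1 was 0.00298 without experiment 5 and -0.0777 to 0.00918 without 1 library. For OLA against no fatty acid, TXNRD1 was -0.0252 under quantile normalization, -0.122 with edgeR, -0.103 with DESeq2, -0.00586 without experiment 2, -0.222 without experiment 5 and -0.202 to 0.223 without 1 library. HMOX1 was -0.0254 without experiment 1, -0.0594 without experiment 2 and -0.0686 to 0.0926 without 1 library. GCLM was 0.00883 without experiment 1, 0.133 without experiment 4 and -0.0634 to 0.0719 without 1 library. SLC7A11 was 0.00329 without experiment 1, 0.0278 without experiment 2 and -0.141 to 0.0541 without 1 library, and SQSTM1 was -0.00817 without experiment 1. For DHA against no fatty acid, KEAP1 was -0.00298 without experiment 3, -0.0923 without experiment 5, -0.0431 without the 3 shallowest libraries and -0.0243 to 0.0927 without 1 library.

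Depth limits OSGIN1, with 2 to 44 reads per library, and GCLC and TXNRD1, whose lowest libraries held 6 and 10 reads.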
